A study of Mus musculus with 12 samples.

Results

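Histone lysine methylation is written by methyltransferases and removed by demethylases, and 35 mouse genes that encode such enzymes were examined for binding of the acetyltransferase MOF in visceral white adipose tissue. The list held 20 methyltransferase and 15 demethylase genes, out of 21938 protein-coding genes on chromosomes 1 to 19, X and Y. The listed genes were chosen by name, with earlier results of these data known, and located by the GENCODE mouse M21 annotation. A peak within 1 kb of any annotated start site of a gene is called a promoter peak here.

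MOF (also called KAT8) acetylates lysine 16 of histone H4, a mark of active chromatin, and works in complexes that are recruited to many promoters. Most lysine methyltransferases carry a SET domain, with DOT1L as the exception in this list. KMT2A to KMT2D and the SETD1 enzymes methylate lysine 4 of histone H3 (H3K4) at promoters and enhancers together with the shared subunits WDR5, RBBP5, ASH2L and DPY30. The SETDB, EHMT and SUV39H enzymes methylate H3K9 in silent chromatin, SETD2, NSD1 and ASH1L methylate H3K36, and the KMT5 enzymes methylate H4K20. Among the demethylases, KDM1A and KDM1B use FAD as cofactor, whereas the others belong to the jumonji family.

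The study profiled C57BL/6 mice at 8 weeks of age on a standard diet, either wild type (Mof+/+) or Mof heterozygous (Mof+/-), by chromatin immunoprecipitation and sequencing (ChIP-seq). There were 12 libraries in 6 groups of 2, since each genotype had ChIP libraries for MOF and for histone H3 beside input DNA. The deposited peak lists were analysed, 1 per genotype, with 19773 peaks for Mof+/+ and 731 for Mof+/-. Neither of these lists carries values of single replicates, so the genotypes could not be compared over animals and no such test was made. The labels give 2 replicates of each kind in both genotypes, and the paper's reporting summary names 2 littermates per genotype. The submitters' design text instead counts 3 Mof+/- animals. The nuclei came from whole tissue, in which binding in fewer cells and weaker binding per cell cannot be told apart.

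The peak lists also differed in depth. The lowest input background under any peak was 3.52 fragments for Mof+/+ and 2.26 for Mof+/-, as solved from the fold enrichment and p-value of each peak. Of 8 adipocyte marker genes, Adipoq, Plin1, Lipe, Pnpla2 and Cebpa had a Mof+/+ promoter peak, while Lep, Fabp4 and Cidec had none. The same was true of 6 of 8 B cell markers, 6 of 8 T cell markers, 1 of 8 macrophage markers, 2 of 8 endothelial markers and 2 of 8 fibroblast and progenitor markers. Over all coding genes the share with a Mof+/+ promoter peak was 41.0%. In the Mof+/- list 1 B cell and 1 fibroblast marker had a promoter peak, and none of the 8 adipocyte, T cell, macrophage or endothelial markers did. Over all coding genes the Mof+/- share was 1.32%. The part of each cell type in the results was not tested.

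The DNA just upstream of a start site is shown for the genes at the ends of the range, namely the strongest and the widest promoter peaks and both genes without a promoter peak. Each run holds the 250 bases before a start site in the direction of transcription, from GRCm38 patch 6, with CpG sites in capitals. For genes with a peak, the start site taken was the nearest to the strongest summit among those without UTR or coding sequence in the window. This was the nearest of all start sites for Kmt2e and Nsd1, but for Kmt5b it was the most upstream one, 1166 bp from the summit. The windows are chr19:3767171-3767420 on the plus strand (Kmt5b), chr5:23434191-23434440 on the plus strand (Kmt2e), chr13:55210485-55210734 on the plus strand (Nsd1), chr4:118180044-118180293 on the minus strand (Kdm4a) and chr17:56325812-56326061 on the plus strand (Kdm4b).
Kmt5b: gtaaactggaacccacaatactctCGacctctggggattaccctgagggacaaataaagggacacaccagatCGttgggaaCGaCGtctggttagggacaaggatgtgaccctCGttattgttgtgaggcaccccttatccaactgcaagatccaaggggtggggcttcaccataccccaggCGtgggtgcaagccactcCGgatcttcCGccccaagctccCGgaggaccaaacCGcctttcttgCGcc
Kmt2e: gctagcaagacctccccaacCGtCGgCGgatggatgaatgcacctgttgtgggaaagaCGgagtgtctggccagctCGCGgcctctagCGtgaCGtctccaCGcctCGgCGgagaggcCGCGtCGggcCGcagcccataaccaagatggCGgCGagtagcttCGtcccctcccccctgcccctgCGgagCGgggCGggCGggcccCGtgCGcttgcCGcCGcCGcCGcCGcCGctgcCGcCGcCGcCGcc
Nsd1: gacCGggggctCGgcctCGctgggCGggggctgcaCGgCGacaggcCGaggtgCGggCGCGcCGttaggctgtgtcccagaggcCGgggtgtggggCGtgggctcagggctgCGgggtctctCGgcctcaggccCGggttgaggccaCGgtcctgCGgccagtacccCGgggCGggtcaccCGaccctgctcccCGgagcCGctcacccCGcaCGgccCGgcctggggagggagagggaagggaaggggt
Kdm4a: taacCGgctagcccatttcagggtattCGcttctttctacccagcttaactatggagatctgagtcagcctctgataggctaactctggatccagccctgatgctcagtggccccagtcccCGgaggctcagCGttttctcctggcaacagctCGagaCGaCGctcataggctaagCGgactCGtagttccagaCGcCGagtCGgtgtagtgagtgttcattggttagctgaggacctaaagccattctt
Kdm4b: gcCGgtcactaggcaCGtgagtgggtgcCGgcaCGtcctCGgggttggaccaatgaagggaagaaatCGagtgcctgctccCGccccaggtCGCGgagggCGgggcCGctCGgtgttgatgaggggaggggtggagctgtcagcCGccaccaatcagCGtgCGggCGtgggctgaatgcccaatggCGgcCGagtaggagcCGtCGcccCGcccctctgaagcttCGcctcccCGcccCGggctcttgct

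All 250 bases of the Kmt5b, Kmt2e and Nsd1 windows lay under a Mof+/+ peak, and no base of the Kdm4a and Kdm4b windows did. No window overlapped a UTR or coding sequence, although that of Kmt2e overlapped an annotated non-coding exon. These windows held 34 CpG sites in Kmt2e, 26 in Nsd1, 24 in Kdm4b, 12 in Kdm4a and 11 in Kmt5b.

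In Mof+/+ tissue, a promoter peak was present at 33 of the 35 genes (94.3%, 95% Wilson interval 81.4 to 98.4%), compared with 41.0% of all protein-coding genes. Most of the listed genes start in CpG-rich DNA. In 34 of 35 at least 1 start site had a GC content of 50% or more and an observed over expected CpG ratio of 0.6 or more in the surrounding 1001 bp, the exception being Kdm6b. Of all coding genes with such a start, 67.6% had a Mof+/+ promoter peak. The listed genes also had a median of 6 start sites against 3 for all coding genes, and 75.2% of CpG-rich coding genes with at least 6 start sites had a peak. The intervals cover counting error over genes and not the spread between animals. The genes were not drawn at random but listed with earlier results of these data known, so the intervals are descriptive only.

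Promoter peaks were present at all 20 methyltransferase genes (interval 83.9 to 100%). Among the demethylase genes 13 of 15 did (86.7%, 62.1 to 96.3%), all but Kdm4a and Kdm4b. The difference of 13.3 percentage points between both enzyme groups had a 95% Newcombe interval from -5.42 to 37.9. This difference was not tested, since listed genes are not replicates, and no conclusion about the groups was drawn from it. When Mof+/+ peaks were held to the weakest p-value found among Mof+/- peaks, 28 of the 35 genes kept a promoter peak, compared with 35.8% of all coding genes. Dot1l, Ehmt1, Kdm1b, Kdm6b and Setdb1 were the genes that then had none.

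**Figure D1:**
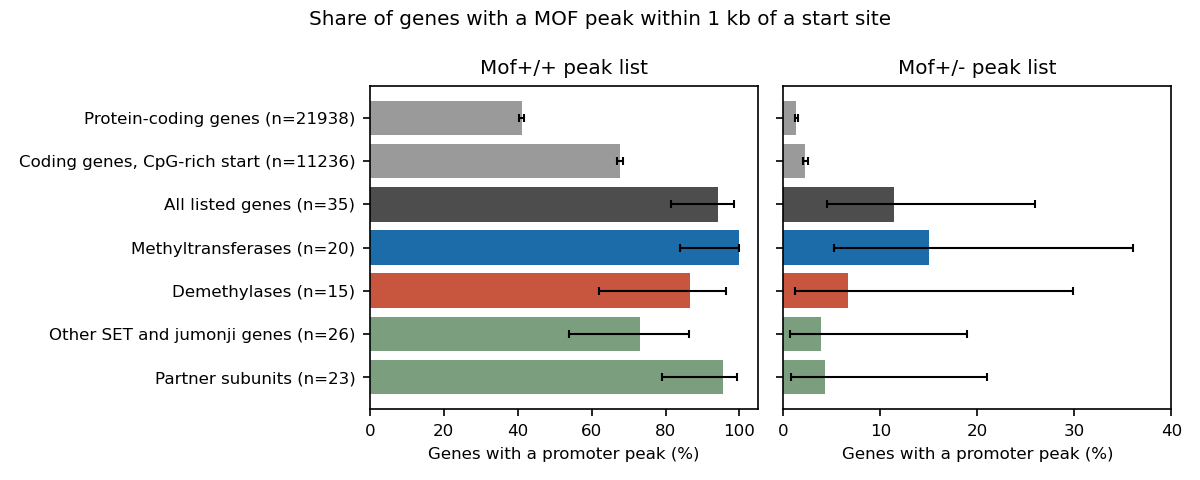
Percentage of genes with a MOF peak within 1 kb of a start site, for Mof+/+ (left) and Mof+/- (right), with 95% Wilson intervals over genes. The listed genes reached 94.3% against 41.0% of all coding genes on the left and 11.4% against 1.32% on the right, where the intervals of the short gene lists are wide.

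The strength of a peak was described by the fold enrichment of its summit over input DNA. Over the 33 genes, the strongest promoter peak had a median fold enrichment of 4.65 (range 2.34 to 9.29), compared with 3.98 over all 9003 coding genes with a promoter peak. The widest promoter peak of a gene had a median width of 1220 bp (327 to 4313) against 866 bp. For coding genes with a CpG-rich start and a promoter peak, these medians were 4.06 and 879 bp. Each value is the highest over all promoter peaks of a gene. The listed genes had a median of 6 start sites, against 5 for coding genes with a promoter peak. No comparison at equal numbers of start sites was made. By fold enrichment 15 of the 33 genes lay in the upper quartile of coding genes with a peak, and by width 16 did. Methyltransferase genes had a median fold enrichment of 4.76 and a median width of 1572.5 bp. The values for demethylase genes were 4.65 and 963 bp. Both groups overlapped over most of their range, and a width of at least 1500 bp was reached by 11 of 20 methyltransferase genes and 4 of the 13 demethylase genes with a promoter peak. This width was reached by 20.9% of all coding genes with a promoter peak. The difference of 24.2 percentage points between both enzyme groups had a Newcombe interval from -9.74 to 50.6 and was not tested.

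**Figure D2:**
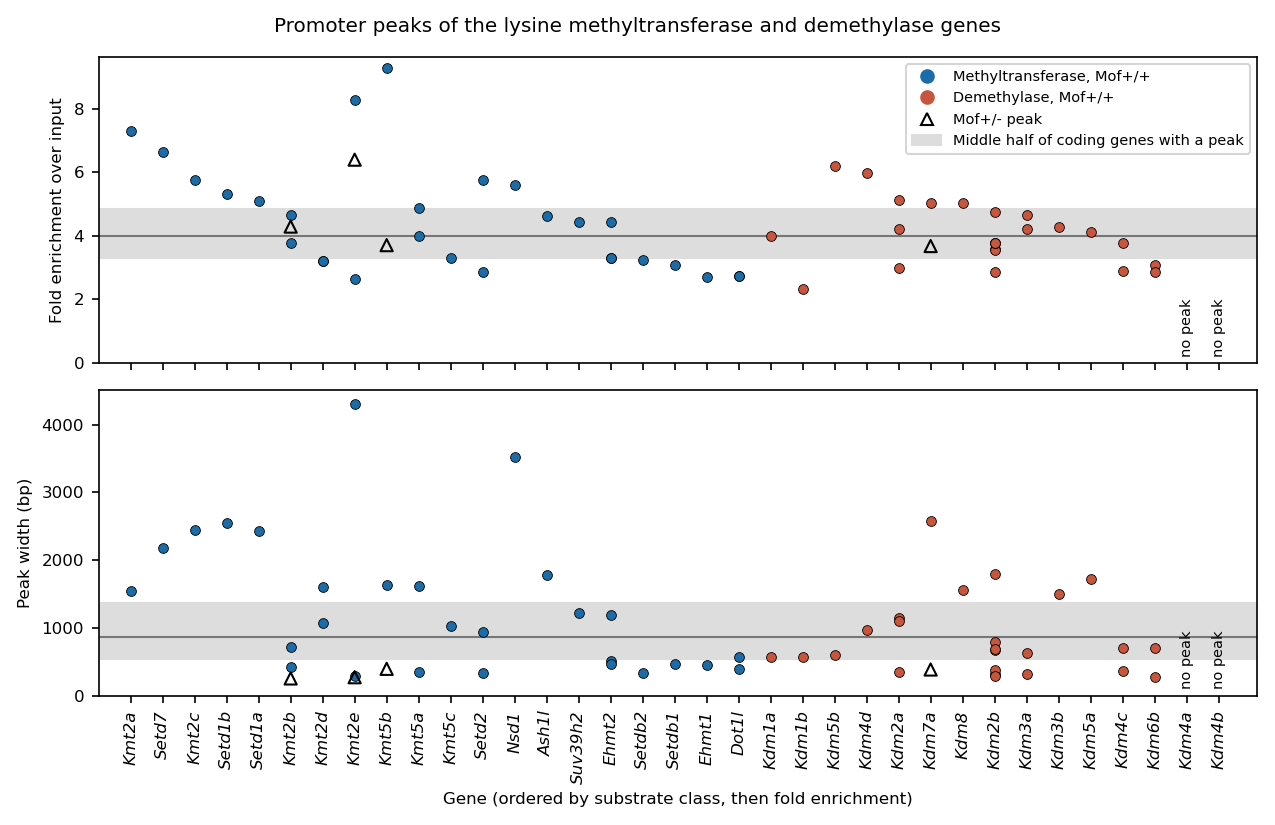
Fold enrichment over input (top) and width in bp (bottom) of every promoter peak of each gene, with Mof+/+ peaks as dots, Mof+/- peaks as triangles, the grey line and band giving the median and the interquartile range over coding genes with a promoter peak (strongest peak on top, widest peak at the bottom). Kmt5b and Kmt2e stand highest in the upper panel at 9.29 and 8.30, Kmt2e and Nsd1 widest in the lower panel at 4313 and 3530 bp.

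The strongest promoter peak of the list belonged to Kmt5b, which encodes a writer of H4K20 di- and trimethylation. It spanned chr19:3767118-3768749 with a fold enrichment of 9.29 and 41 fragments at the summit, a fold enrichment above 99.7% of coding genes with a promoter peak. Its summit lay 40 bp downstream of the nearest start site and 1166 bp downstream of the most upstream one, in a UTR. The other H4K20 genes had weaker peaks. Kmt5a, the H4K20 monomethyltransferase, had a peak of 4.87 beside its most upstream start and a wider one of 1617 bp and 3.98 over start sites inside the gene. Kmt5c had a single peak of 3.32 and 1024 bp, resting on 14 fragments.

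The widest promoter peak was that of Kmt2e, a KMT2 family member for which methyltransferase activity has not been shown. It covered 4313 bp at chr5:23431849-23436161, with a fold enrichment of 8.30 and 38 fragments at a summit 706 bp upstream of the start. The summit lay in an exon of a non-coding gene, and the annotated gene 5031425E22Rik also started within 1 kb of the peak. A second promoter peak of Kmt2e, 288 bp wide, lay at a start site inside the gene, with its summit 58341 bp from the first start, and had a fold enrichment of 2.65.

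The genes of the H3K4 methyltransferases carried wide promoter peaks. Their median width was 2179 bp and their median fold enrichment 5.31, and the widest peak lay in the upper quartile of coding genes in 6 of 7. Kmt2a (also called Mll1) had a peak of 1538 bp and 7.30, and Kmt2c one of 2451 bp and 5.75. Setd1a and Setd1b, which encode the catalytic subunits of the SET1 complexes, had peaks of 2430 bp and 2547 bp with fold enrichments of 5.09 and 5.31. Setd7, whose product methylates H3K4 and many non-histone proteins, had a peak of 2179 bp and 6.64.

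Kmt2b was the H3K4 gene outside the upper quartile by width. It had a peak of 425 bp over its first start site and one of 718 bp upstream of it, with fold enrichments of 4.65 and 3.76. Kmt2d had a wide peak of 1607 bp with 29 fragments at the summit, a local input background of 8.35 fragments and a fold enrichment of 3.21.

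The strongest promoter peaks of the H3K36 and H3K79 genes had fold enrichments from 2.73 to 5.75. Nsd1 had the second widest peak of the list, 3530 bp at chr13:55210077-55213606 with a fold enrichment of 5.60. This peak began downstream of the most upstream annotated start of Nsd1 and lay over start sites further inside the gene. Setd2, the main writer of H3K36 trimethylation, had a peak of 5.75 and 932 bp over its start and a smaller one of 333 bp upstream. Ash1l had a peak of 4.64 and 1786 bp, within 1 kb of a start of the neighbouring gene Dap3 as well. Dot1l, the H3K79 methyltransferase, had peaks of 2.73 at its first start and at a start inside the gene, the second with its summit 36564 bp from the first start, each resting on 15 fragments.

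H3K9 methyltransferase genes had the narrowest and weakest promoter peaks among the classes of at least 3 genes. Their median width was 460 bp and their median fold enrichment 3.24, and none of the 5 reached the upper quartile by either measure. Setdb2 had the narrowest widest peak of the list at 327 bp, with a fold enrichment of 3.24. Ehmt1, which encodes GLP, had a peak of 448 bp and 2.71. Setdb1 had a peak of 460 bp and 3.10 that lay upstream of its first start, at a distance of 84 bp, in DNA with a GC content of 30.2% and 4 CpG sites. Ehmt2 (G9a) and Suv39h2 had wider peaks of 1187 and 1220 bp with fold enrichments of 4.42 and 4.44. The peaks upstream of Setdb2 and around Ehmt2 also lay within 1 kb of a start of Cab39l and of C2.

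**Figure D3:**
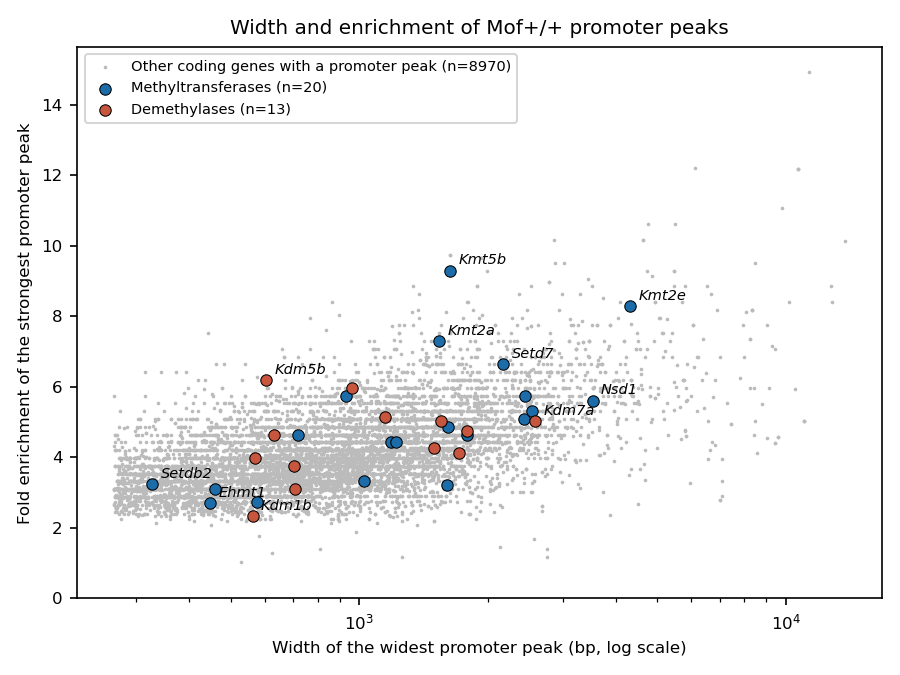
Fold enrichment of the strongest Mof+/+ promoter peak (vertical axis) against the width of the widest one in bp (horizontal, log scale) for the 20 methyltransferase genes, the 13 demethylase genes with a peak and all other coding genes with one. Kmt5b, Kmt2e, Kmt2a and Setd7 have the highest fold enrichments of the listed genes, at 9.29, 8.30, 7.30 and 6.64, whereas Ehmt1 and Kdm1b have the lowest promoter values, at 2.71 and 2.34.

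Among demethylase genes, Kdm5b and Kdm4d had the strongest promoter peaks. Kdm5b, whose product removes H3K4 di- and trimethylation, had a peak of only 605 bp with a fold enrichment of 6.19, the fifth highest of the list. Its paralogue Kdm5a had a wider and weaker peak of 1718 bp and 4.11, which also lay within 1 kb of a start of Ccdc77. Kdm4d had a peak of 963 bp and 5.97 that also lay within 1 kb of a start of Cwc15.

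The H3K36 demethylase genes Kdm2a and Kdm2b had several promoter peaks each. Kdm2b had 7, the most of the 35 genes, spread over its 19 start sites, with fold enrichments up to 4.75 and widths up to 1795 bp. Kdm2a had 3, and its strongest peak, 5.15 and 1151 bp, had its summit 64561 bp from the first start, at a start site inside the gene. In all, 12 of the 35 genes had more than 1 promoter peak, compared with 8.91% of all coding genes and 18.1% of those with at least 6 start sites. Both of these shares also count genes without any promoter peak. Of the 9003 coding genes with a promoter peak, 1954 had more than 1, beside 12 of the 33 listed genes with one.

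Kdm7a, whose product acts on H3K9 and H3K27 methylation, had the third widest peak of the list at 2584 bp with a fold enrichment of 5.02. Kdm8 had a peak of 1557 bp and the same fold enrichment of 5.02. The H3K9 demethylase genes Kdm3a and Kdm3b had strongest peaks of 4.65 and 4.26, and widest peaks of 631 and 1498 bp. Of the FAD-dependent enzymes, Kdm1a (LSD1) had a peak of 569 bp and 3.98. Kdm1b had the lowest fold enrichment among the promoter peaks of the list, 2.34 over 563 bp, with a −log10 q-value of 1.18, and this peak also lay within 1 kb of a start of Tpmt. When each gene was represented by its best q-value, the next weakest were Ehmt1 and Dot1l, at 1.52 and 1.77 on the same scale.

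KDM4A, KDM4B and KDM4C remove methyl groups from H3K9 and H3K36, and their genes were the only ones of the list without a Mof+/+ peak within 1 kb of the most upstream start. Kdm4a had its nearest Mof+/+ peak 8951 bp from any of its start sites, at chr4:118137465-118137808 in a UTR near the other end of the gene, with a fold enrichment of 3.04. Kdm4b had its nearest one 12812 bp away, beyond the end of the gene at chr17:56406732-56407050, with 2.90. Both genes have CpG-rich starts, with up to 45 CpG sites in the 1001 bp around a start of Kdm4a and up to 105 around one of Kdm4b. Kdm4c had peaks of 703 bp and 364 bp around a start site inside the gene and none at its most upstream start.

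Kdm6b, which encodes the H3K27 demethylase JMJD3, had weak promoter peaks of 2.88 and 3.10, the first over its most upstream start and the other at a start inside the gene. A much stronger peak lay just past the 1 kb limit. It spanned 3629 bp at chr11:69408862-69412490, began 1185 bp from the first start and had a fold enrichment of 7.74 with 34 fragments at its summit in an intron. By the definition used here this peak counted as a gene-body peak.

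**Figure D4:**
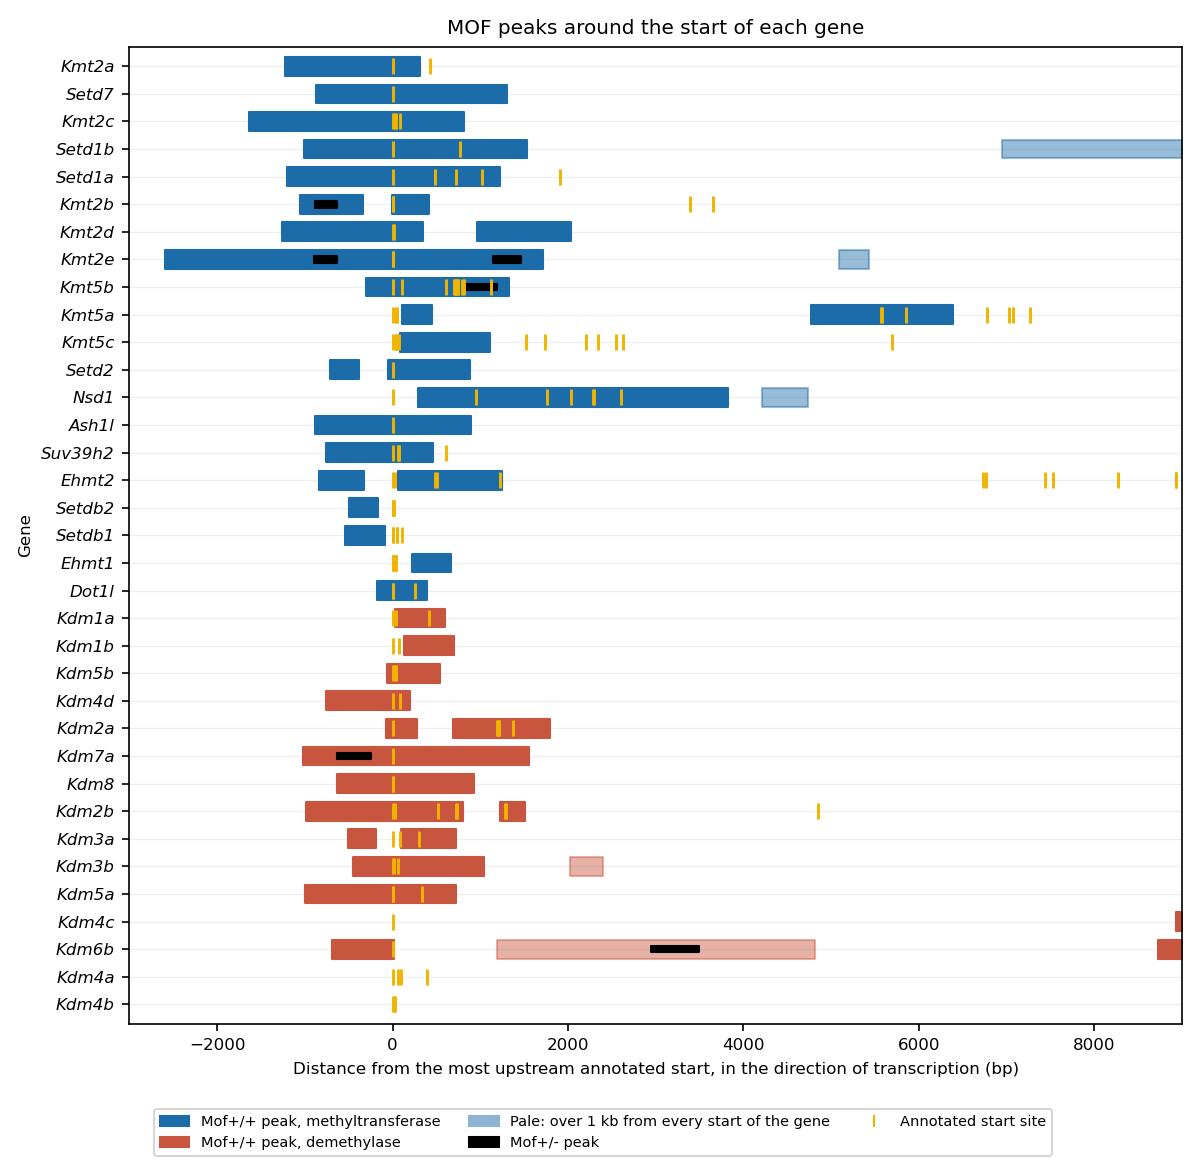
Position of MOF peaks relative to the most upstream annotated start of each gene (horizontal axis, bp in the direction of transcription), with Mof+/+ peaks as coloured bars, paler where they lie over 1 kb from every start of the gene, Mof+/- peaks as black bars and annotated start sites as yellow ticks. Kdm4a and Kdm4b show start sites without a peak, Nsd1 a peak that begins past the first start, and Kdm6b a wide peak inside the gene. Peaks beyond the drawn range are not shown.

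A promoter peak lies near a start site by definition, and its place within the window was therefore read against all coding genes with such a peak. The 33 genes had 52 different promoter peaks, of which 34 lay over a start site. Of the 33 strongest peaks, 24 lay over a start site, where the share over all coding genes with a promoter peak was 74.0%. In 25 the summit lay within 500 bp of a start, where that share was 83.8%. Summits were found downstream of the nearest start in 19 genes and upstream of it in 14, with a median of 52 bp downstream (range 964 bp upstream to 645 bp downstream). The annotation placed 11 strongest summits in an intron, 10 in a UTR, 6 in coding sequence, 3 in a non-coding exon and 3 outside genes. In 6 genes a start site of another coding gene lay within 1 kb of a promoter peak, so binding there could not be given to one gene of the pair. At Kmt2a, Kmt2b, Kmt2c, Kmt2d, Kmt2e, Setd1b, Setd7, Kdm2b, Kdm4c and Kdm7a, a start of an annotated gene that is not coding lay as near. The same limit holds there, also for the Mof+/- promoter peaks of Kmt2b, Kmt2e and Kdm7a.

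RefSeq promoter sequences, 300 bases from 250 before to 50 after a gene's start, were at hand for 25 of the 35 genes. Those of Kmt2b, Kmt2e, Setd1b, Nsd1, Ash1l, Kdm2a, Kdm3b, Kdm4b, Kdm5a and Kdm6b were missing. The GC box GGGCGG, searched on both strands, was present in 19 of 25 (76.0%) and in 51.0% of 16522 coding genes. The ETS core CCGGAAG, also on both strands, was present in 5 of 25 against 13.4%. The median number of CpG sites in these windows was 33 against 15. Both motifs hold a CpG themselves, and their shares among coding genes of equal CpG content were not computed.

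Gene-body peaks, which overlapped the gene but lay over 1 kb from every start site of it, were found in 11 of the 35 genes in Mof+/+ tissue, with 18 peaks in all. Such a peak was present in 12.1% of all coding genes and in 21.2% of those at least as long as the median listed gene (45561 bp). With q-values limited to 0.001 the count of listed genes was 5, and the share over all coding genes was not computed at that limit. Kmt2e had 4, with fold enrichments of 2.51 to 3.47, Nsd1 had 3, and Kdm3b and Kdm6b had 2 each. Of the 18 summits 9 lay in introns, 4 in coding sequence, 2 in UTRs, 2 in non-coding exons and 1 past the end of the gene. The strongest after that of Kdm6b was a 583 bp peak of 4.42 in coding sequence of Dot1l, stronger than both promoter peaks of that gene and 1066 bp from the nearest start. Setd1b had a gene-body peak of 2421 bp and 4.06. The single gene-body peaks of Kmt2a, Kmt2d, Setd7, Kdm2b and Kdm4a had fold enrichments of 2.51 to 3.29.

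To ask which of these genes still carried a peak with 1 copy of Mof, the Mof+/- list was searched in the same way. A Mof+/- promoter peak was found at 4 of the 35 genes (11.4%, interval 4.54 to 26.0%), namely Kmt2b, Kmt2e, Kmt5b and Kdm7a. This count was 2 with a window of 500 bp and 1 with q-values limited to 0.001. The share over all coding genes was not computed under either setting. With the 1 kb window and all deposited peaks, the share was 1.32% of all coding genes and 2.25% of those with a CpG-rich start. Among coding genes with a Mof+/+ promoter peak it was 3.14%, and among those in the upper quartile by Mof+/+ fold enrichment it was 6.89%. By enzyme group, 3 of 20 methyltransferase genes and 1 of 15 demethylase genes had one. With so few genes no conclusion was drawn from the difference of 8.33 percentage points (Newcombe interval from -16.8 to 30.1), which was not tested.

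The Mof+/- peaks were narrow and lay inside the wider Mof+/+ peaks. At Kmt2e, the Mof+/- list held a promoter peak of 271 bp with a fold enrichment of 6.40 and 21 fragments, and its summit lay 27 bp from that of the 4313 bp Mof+/+ peak. The same Mof+/+ peak held another Mof+/- peak of 321 bp and 4.60, which lay 1135 bp inside the gene and so did not count as a promoter peak. At Kmt5b, the Mof+/- peak of 395 bp had a fold enrichment of 3.71 where the Mof+/+ peak had 9.29, and their summits lay 328 bp apart.

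At Kmt2b, the Mof+/- peak of 253 bp and 4.29 did not lie in the stronger Mof+/+ promoter peak over the start. It lay in the other one, which had a fold enrichment of 3.76, with summits 78 bp apart. At Kdm7a, the Mof+/- peak was 385 bp wide with a fold enrichment of 3.68 and 11 fragments, the fewest found in that list, and its summit lay 839 bp from that of the Mof+/+ peak. Inside Kdm6b, a Mof+/- peak of 548 bp and 3.71 lay within the 3629 bp Mof+/+ peak. Fold enrichments of both lists were computed against different input backgrounds, so their sizes are given side by side and not as a ratio.

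**Figure D5:**
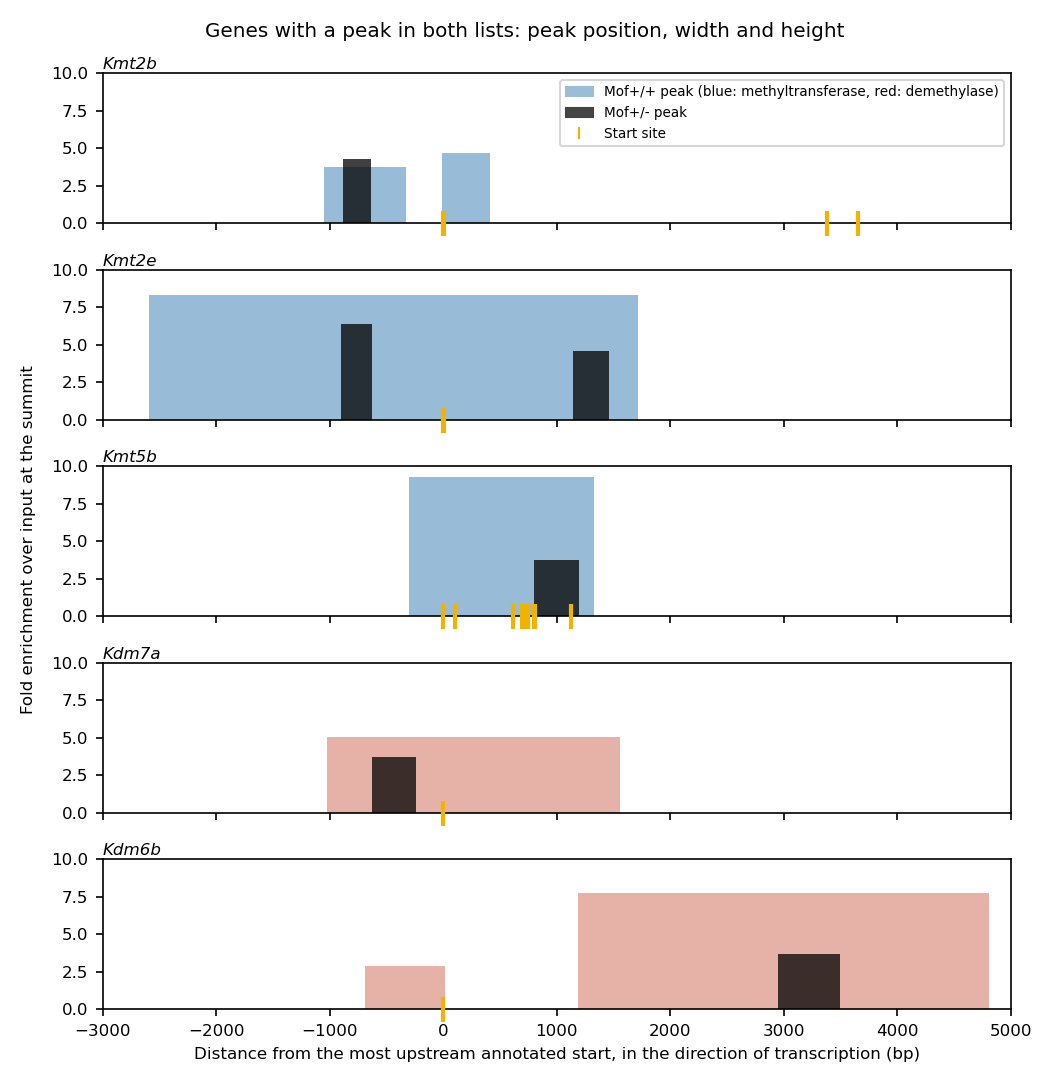
Peaks of the 5 genes with a peak in both lists, drawn by position from the most upstream start (horizontal axis, bp), width and fold enrichment at the summit (bar height), with Mof+/+ peaks pale and Mof+/- peaks dark. Each Mof+/- peak is narrower than the Mof+/+ peak it lies in, and its height is lower except at Kmt2b, where 4.29 stands against 3.76.

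The missing Mof+/- peaks at the other genes were set against the depth of that list. The fragments and background at each Mof+/+ promoter summit were multiplied by 0.642, the ratio of the lowest backgrounds, and the resulting Poisson p-value was compared with the weakest one among Mof+/- peaks. On this calculation, which leaves out counting noise, 24 of the 33 genes (72.7%) would still pass, as would 52.4% of coding genes with a Mof+/+ promoter peak. Of those 24 genes, 4 carried a peak in the Mof+/- list too and 20 did not. The count is by gene, and at Kmt2b the Mof+/- peak lay in the Mof+/+ promoter peak of 16 fragments, which did not pass, and not in that of 20 fragments, which did. Over all coding genes that passed, 4.74% had one. The strong Mof+/+ peaks of Kmt2a, Setd7, Kdm5b and Kdm4d, with 26 to 32 fragments, were among those without a Mof+/- peak. A gene without a Mof+/- peak may still be bound below the detection limit. For 9 genes, Kmt5c, Setdb1, Setdb2, Ehmt1, Dot1l, Kdm1a, Kdm1b, Kdm4c and Kdm6b, no scaled Mof+/+ promoter summit would have passed. At this depth a missing Mof+/- peak there says little about a loss. Not passing did not exclude a Mof+/- peak, since only 224 of the 283 coding genes with a promoter peak in both lists passed.

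Genes of the same families and of partner subunits were examined by the same rule. Of 49 such genes 41 had a Mof+/+ promoter peak (83.7%, interval 71.0 to 91.5%), against the 41.0% of all coding genes. Most of the 49 have a CpG-rich start. Of all coding genes with such a start 67.6% had a peak, and 75.2% of those with at least 6 start sites. Among 26 other SET domain and jumonji genes 19 had one (73.1%). The interval of 53.9 to 86.3% includes both of these shares. The genes of this group without a peak were Suv39h1, Setd6, Smyd1, Smyd2, Smyd5, Kdm5d and Hr. Among 23 partner subunits 22 had one (95.7%), all but Rcor2, a corepressor of KDM1A. The core subunits shared by the KMT2 and SETD1 complexes had modest peaks, with fold enrichments of 3.47 at Wdr5, 4.20 at Rbbp5, 4.20 at Ash2l and 2.25 at Dpy30. In the Mof+/- list 2 of the 49 genes had a promoter peak, where the share was 1.32% of all coding genes and 3.14% of those with a Mof+/+ promoter peak. One was Mecom, with 4.29 in Mof+/- and 3.76 in Mof+/+. The other was Rcor1, which encodes the CoREST scaffold of KDM1A, with 4.91 in Mof+/- and 6.42 in Mof+/+.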

How the data were processed

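MOF ChIP-seq peaks were analysed as deposited, 1 list per genotype. The authors mapped reads to GRCm38 and called peaks against input with MACS2 (version 2.1.1.20160309.3 in the submitters' processing notes) at a q-value of 0.1. Peaks of a cell type were merged within 1000 bp according to the methods. Whether that step joined replicates is unclear, and the deposited lists still held neighbouring peaks within this distance. The Mof+/+ list was assigned because its name lacks the heterozygous tag. The deposited fold enrichment is a ratio over input, and the p- and q-values, deposited as −log10, come from the same caller. Fragments at summits were solved from fold enrichment and p-value (tolerance 0.001), and the procedure was tested on simulated data.

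Genes came from GENCODE M21 and sequence from GRCm38 patch 6. Intervals are 95% Wilson intervals (scipy 1.17.1). The genes and lists were chosen with earlier results of these data known. The genes described individually were those with the 5 strongest, 5 widest and 3 weakest promoter peaks, those without one and those with a Mof+/- peak. Kmt2e, Nsd1 and Kdm6b, with most gene-body peaks, were too, while Kdm3b, tied with Kdm6b, was described within its class. All other listed genes were described within their class. H3 and input libraries were not analysed here.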

Additional observations from a re-analysis of the deposited data

How the results depend on the processing

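Of 77 values under 11 alternative settings, 74 stayed within 1.5 times the reported value or, for the difference between enzyme groups, within its interval. The number of genes with a Mof+/+ promoter peak ranged from 27 to 33, and the median fold enrichment from 4.65 to 5.02. The number with a Mof+/- promoter peak was 2 with a 500 bp window, which left out Kmt2b and Kmt2e, and 1 (Kmt2e) when q-values were limited to 0.001. That limit also left 5 genes with a Mof+/+ gene-body peak. The smaller window and the stricter q-value leave fewer peaks by construction. Apart from the 35.8% given above for the weakest Mof+/- p-value, shares over all coding genes were not computed under the alternative settings. No paired analysis was possible because the files analysed here were 1 peak list per genotype with no column that names a replicate, so no replicate could be left out either. Signal tracks were not used here. The depth of single libraries is unknown. Promoter peaks resting on 11 to 16 fragments are at or close to the detection limit of 11.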
